A study of Homo sapiens with 12 samples.

Results

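Of 293016 protein-protected sites that the authors merged over both nucleases, 2618 (0.893%) were found again with an enzyme that cuts paired RNA and were absent with an enzyme that cuts single-stranded RNA. They were chosen by overlap of at least 1 nt on the same strand with a site in at least 2 of the 3 lists of the double-strand-specific ribonuclease (dsRNase, RNase V1) and with no site in any of the 3 lists of the single-strand-specific ribonuclease (ssRNase, RNase ONE). The mitochondrial genome and the contig Un_gl000220 were left out of this choice, and 60 and 21 of their merged sites would otherwise have met it. The replicate sites that the authors name behind each merged site gave the same 2618 sites. These are called dsRNase-only sites below, although a site missing from a list is one that did not pass the authors' false discovery rate of 5%, and need not be unprotected.

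All material came from HEK293T, an established line of human embryonic kidney origin. The cells were cross-linked in 1% formaldehyde over 10 minutes, and 125 mM glycine stopped the reaction. The 12 libraries form 4 groups of 3 replicates: an ssRNase and a dsRNase footprint group, in which the lysate was digested while protein was still on the RNA, and an ssRNase and a dsRNase digestion control group, in which 1% SDS and proteinase K removed the protein first. Each of the 6 replicate lists sets one footprint library against its own nuclease's control with that replicate number, and all groups share the fixation. Whether replicates were separate cultures is not stated in the labels, so spreads and p-values measure these samples alone and may be technical.

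RNA-binding proteins shield the stretch of RNA that they sit on, and a ribonuclease removes the RNA around it. An enzyme for unpaired RNA leaves hairpin stems and other paired RNA uncut even where no protein is bound, and an enzyme for paired RNA leaves loops and unfolded stretches uncut, and each enzyme here has its own protein-free control. A site seen with RNase V1 alone is therefore one where shielding by protein was called against the cutting of paired RNA only.

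The lists differed in length, which bears on every absence below. The dsRNase lists held 21561 to 28413 sites and the ssRNase lists 57481 to 209922, ssRNase replicate 2 being the shortest of its group. The lists hold no read counts, so the depth behind a site is unknown. Positions are those of build hg19 as listed, and genes, transcript parts and bases at these positions were not analysed here.

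Sites seen again with dsRNase were mostly also seen with ssRNase. Of 14903 merged sites in 2 or 3 dsRNase lists, 2618 had no ssRNase site (17.6%, 95% exact binomial interval 17.0% to 18.2%). The share without ssRNase was 31.9% among sites in a single dsRNase list (10641 of 33385), 18.7% among those in exactly 2 lists (1778 of 9519) and 15.6% among those in all 3 (840 of 5384). These counts follow from the rule and are given as a description. The intervals cover counting error only, since neighbouring sites are not independent. The list of ssRNase replicate 1 decided much of the number: without it 4697 sites would have had no ssRNase site, against 2715 without replicate 2 and 3513 without replicate 3.

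All 3 dsRNase lists held a site at 840 of the 2618 dsRNase-only sites (32.1%). Replicates 1 and 2 alone shared 690, replicates 2 and 3 alone shared 649, and replicates 1 and 3 alone shared 439. Replicate 2, which has the longest dsRNase list, thus took part in more pairs than the others. Every dsRNase-only site had at least 1 base covered in 2 lists, 2052 (78.4%) had at least 20 such bases, and 62 (2.37%) had at most 5.

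**Figure D1:**
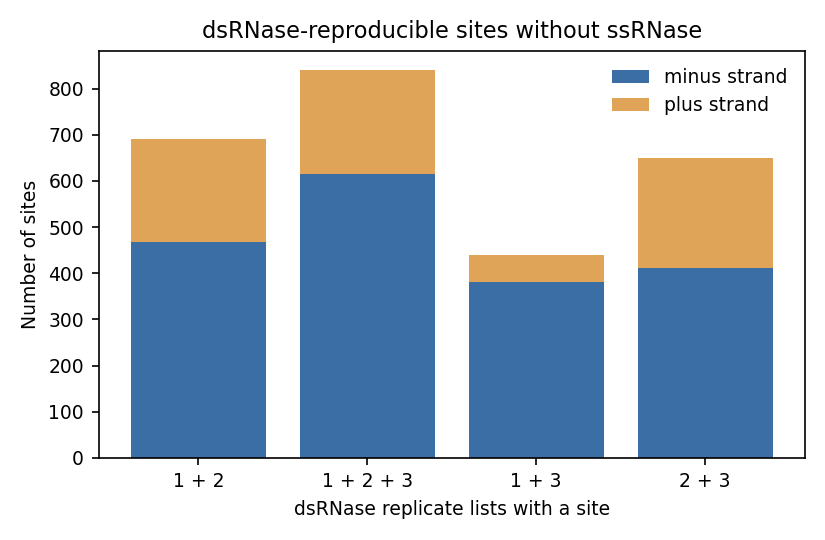
Number of dsRNase-only sites (vertical axis) by the dsRNase replicate lists that hold them (horizontal axis), with bars split by strand and read from 0. The 840 sites of all 3 lists form the largest class, and the 439 sites of replicates 1 and 3 have the smallest part on the plus strand.

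The sites were short. Their median merged length was 41 nt (quartiles 33 and 51, range 5 to 191 nt), and the median number of bases covered in at least 2 lists was 29. Sites of all 3 lists had a median of 48 nt, of which 28 were covered in all 3. Merged sites seen with dsRNase in a single list and with no ssRNase had a median of 30 nt. Those seen in 2 or 3 dsRNase lists and also with ssRNase had a median of 73 nt, and the mirror class, seen in 2 or 3 ssRNase lists and with no dsRNase, one of 53 nt. Merging joins replicate sites end to end, so part of these differences is built in. Replicate sites on their own do not carry that effect. Within the 3 dsRNase lists the replicate sites behind dsRNase-only sites had medians of 32, 33 and 35 nt, those behind the shared sites 35, 35 and 36 nt, and those in a single list 30 nt in each list. The ssRNase sites of the mirror class had medians of 45, 44 and 43 nt. The dsRNase-only sites thus lay between the single-list sites and the shared ones in every dsRNase list, and were shorter than the mirror class by 10.7 nt on average. That difference was not particular to them. Over all their sites, the dsRNase lists had medians of 33, 33 and 34 nt and the ssRNase lists 43, 44 and 42 nt. Length can decide whether 2 sites overlap, and with it membership, so no test is given.

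**Figure D2:**
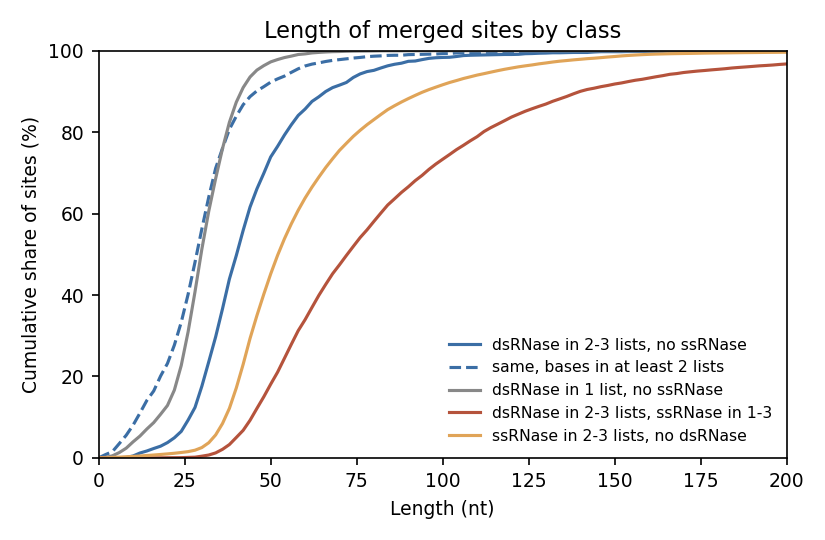
Cumulative share of merged sites (vertical axis, %) up to a length in nt (horizontal axis, drawn to 200 nt) for dsRNase-only sites (solid blue), their bases covered in at least 2 lists (dashed blue), sites of a single dsRNase list (grey), sites of both nucleases (red) and the mirror class of ssRNase (yellow). The dsRNase-only curve reaches 50% at about 41 nt, between the curves with medians of 30 and 53 nt.

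At the median, replicates placed the ends of these sites 3 or 4 nt apart. The rule asks for at least 2 lists with a site in the same merged site, which limits these distances, so they are a description. Where 2 dsRNase lists each gave a single site, the median distance between their 5′ ends was 4 nt for replicates 1 and 2, 3 nt for replicates 1 and 3, and 4 nt for replicates 2 and 3. The 3′ ends differed by medians of 3, 4 and 4 nt. The same 3′ position was called in 18.5%, 22.9% and 20.7% of these pairs, and the same 5′ position in 14.3%, 16.3% and 15.7%. In the shared sites the medians were 5 nt at both ends in all 3 pairs, and both ends lay within 2 nt in 14.5% to 15.3%, against 19.9% to 22.5% for dsRNase-only sites. In the mirror class it was 16.9% to 18.1%. The classes differ in length, as given above, and the part of length in this was not tested.

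Most dsRNase-only sites had a ssRNase site near them on the same strand of the genome. The median distance to the nearest ssRNase site on the same strand was 84 nt (quartiles 23 and 465 nt). A ssRNase site lay within 50 nt of 1010 sites (38.6%), within 200 nt of 1690 (64.6%) and within 1000 nt of 2192 (83.7%, interval 82.3% to 85.1%). Both flanks within 1000 nt held ssRNase sites at 1322 dsRNase-only sites (50.5%). Of the 2618, 1079 (41.2%) had sites of all 3 ssRNase lists within 1000 nt, 722 had sites of 2 lists, 391 of 1 list and 426 (16.3%) of none. A merged site of both nucleases lay within 1000 nt of 1469 (56.1%). Sites of the single-list class had a median of 150 nt and 79.2% within 1000 nt. Mirror-class sites had a median of 2977 nt to the nearest dsRNase site, but the dsRNase lists are far shorter, so this distance cannot be set against the 84 nt.

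**Figure D3:**
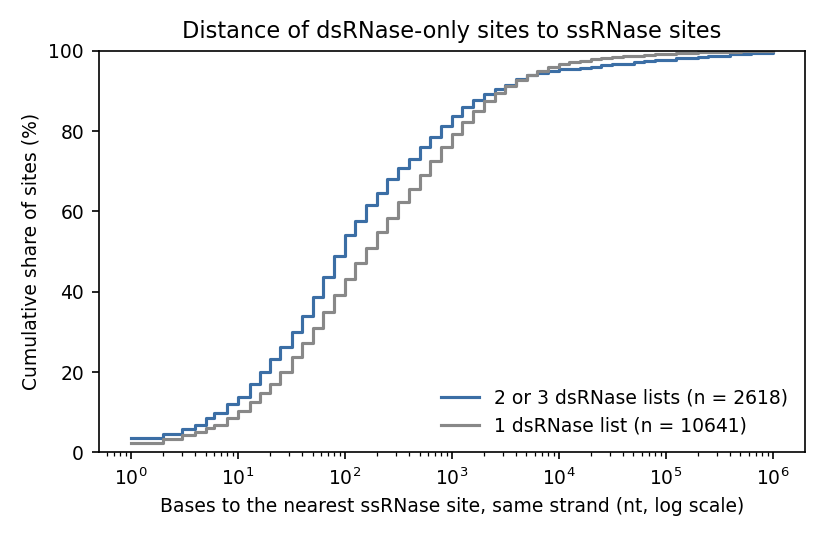
Cumulative share of sites (vertical axis, %) by the number of bases to the nearest ssRNase site on the same strand (horizontal axis in nt, log scale), for the 2618 dsRNase-only sites (blue) and 10641 sites of a single dsRNase list (grey). The blue curve passes 38.6% at 50 nt and 83.7% at 1000 nt and lies above the grey one there, and at 10000 nt it stands at 95.3% against 96.6%.

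At the edge of the rule, 52 dsRNase-only sites (1.99%) had no base between themselves and a ssRNase site, and 222 (8.48%) had at most 5. On the other side of the edge stood 3071 merged sites with dsRNase in 2 or 3 lists and ssRNase in 1 list. Among these the widest overlap of the 2 nucleases was at most 5 nt in 112 (3.65%) and 31 nt at the median. Of the adjoining sites, 3 came first by distance and then by rank of the authors' score: chromosome 4 from 70296653 to 70296752 on the minus strand, chromosome Y from 10037845 to 10037881 on the plus strand, and chromosome 6 from 27775472 to 27775521 on the minus strand. Each of the 3 was present in all 3 dsRNase lists.

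The nearest ssRNase site was more often found toward lower genome coordinates. Among dsRNase-only sites within 50 nt of a ssRNase site, it lay on the lower side in 616 and on the higher side in 390 (61.2% lower, interval 58.1% to 64.3%), leaving aside 4 with one equally near on each side. Within 50 nt the lean had the same direction on both strands, at 57.3% of 288 sites on the plus strand (interval 51.4% to 63.1%) and 62.8% of 718 on the minus strand (interval 59.2% to 66.4%). Lower coordinates are the 5′ side on the plus strand and the 3′ side on the minus strand, so within 50 nt the lean followed the coordinate and not the direction of the RNA. It was 62.0%, 62.0% and 59.7% for the sites held by dsRNase replicates 1, 2 and 3, and 62.2%, 57.1% and 61.7% toward ssRNase replicates 1, 2 and 3. For ssRNase replicate 2, with 177 sites, the interval of 49.4% to 64.5% included an even split. On the plus strand the lean was not resolved at other distances: the share was 52.6% of 97 sites within 10 nt (interval 42.2% to 62.8%), 53.7% within 200 nt (49.0% to 58.4%) and 52.0% within 1000 nt (48.0% to 56.0%). On the minus strand it was 61.3%, 59.4% and 57.6% at those distances, with the lowest bound at 55.1%. Sites of a single dsRNase list leaned the same way within 50 nt, with 58.9% on the plus and 60.4% on the minus strand. In the mirror class the nearest dsRNase site within 50 nt lay on the lower side in 45.5% on either strand, which is the same order of the nucleases read from the ssRNase site. The same pair of neighbours can be counted from both of its sites, so that share is not independent of the values above. Within 1000 nt that share was 50.3% on the plus and 49.0% on the minus strand. This comparison was chosen after the data had been seen, the sites are not independent, and its cause was not tested.

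The 2618 sites lay mainly on the minus strand, with 1876 there (71.7%, interval 69.9% to 73.4%) and 742 on the plus strand. Counted in replicate sites, the minus strand held 74.7%, 68.5% and 73.4% in the 3 dsRNase lists, a mean of 72.2% ± 3.23 (SD, n = 3). In the mirror class it held 54.0%, 53.4% and 53.9% in the 3 ssRNase lists, a mean of 53.8% ± 0.344 (SD, n = 3). The lists of a nuclease share most of these sites, since each site is in at least 2 of them, so the values of its 3 lists are not independent and their SD leaves out part of the spread. All dsRNase values lay above all ssRNase values, with a difference of 18.4 percentage points (exact permutation test over lists, two-sided, p = 0.1, which is the floor for 3 against 3, and 0.375 after Benjamini-Hochberg adjustment over 6 tests). This minus-strand lean was not particular to dsRNase-only sites. Sites shared with ssRNase held 77.2%, 72.9% and 76.5% on the minus strand in the same dsRNase lists, a within-list difference of -3.36 points for dsRNase-only sites (SD 0.947, n = 3 lists; exact sign-flip permutation p = 0.25, the smallest that 3 pairs allow). Sites of a single list split by replicate, with 84.8%, 53.9% and 82.7%, and replicate 2 was the low one. The mean difference from dsRNase-only sites, -1.63 points (SD 14.1, n = 3; exact sign-flip permutation p = 1), was smaller than its spread and changed sign with the replicate.

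The same replicate stood apart inside the dsRNase-only class. Sites held by replicates 1 and 3 alone were on the minus strand in 86.8%, those held by replicates 1 and 2 alone in 67.8%, and those held by replicates 2 and 3 alone in 63.5%. Sites of all 3 lists were there in 73.2%. Without dsRNase replicate 2 the class would have had 1279 sites with 77.9% on the minus strand, and without replicate 1 1489 sites with 69.0%. The minus strand held most dsRNase-only sites on each of 23 chromosomes, counting X and the 22 with numbers, from 60.4% on chromosome 7 to 88.7% on chromosome 8.

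**Figure D4:**
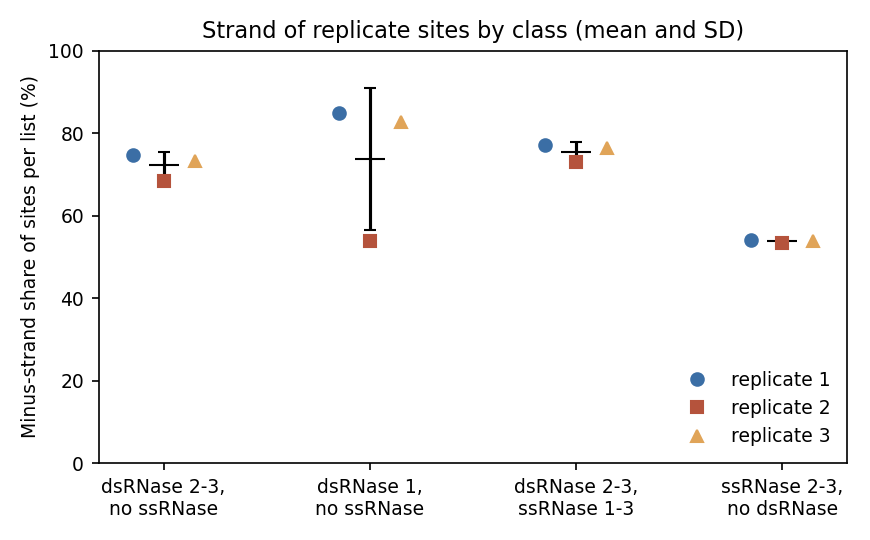
Share of replicate sites on the minus strand (vertical axis, %, from 0 to 100) in each of 3 lists (circle, square and triangle for replicates 1, 2 and 3) for 4 classes of sites, with mean and SD over lists. The dsRNase-only sites range from 68.5% to 74.7%, the mirror class from 53.4% to 54.0%, and replicate 2 falls to 53.9% among sites of a single dsRNase list.

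By chromosome, the shares lay within 2.12 percentage points of those of the shared dsRNase sites. Chromosome 1 held 256 (9.78%), chromosome 2 held 203 (7.75%), chromosome 17 held 195 (7.45%) and chromosome 11 held 187 (7.14%). Chromosome 2 had the largest gain against the shared sites, 2.12 percentage points above their 5.63%, and chromosome 8 the next, with 3.71% against 2.43%. Chromosome 1 had the largest loss, 1.02 points below the 10.8% of the shared sites. Chromosome X held 4.39% of the dsRNase-only and 4.69% of the shared sites, and 3.07% of the mirror class. Only 6 dsRNase-only sites lay outside the numbered chromosomes and X. These shares carry no test.

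Most sites stood alone, and a few stretches held many. The 2618 sites fell into 1949 stranded windows of 10000 bp, and 1588 of these windows (81.5%) held a single one. A further dsRNase-only site lay within 1000 nt on the same strand for 694 sites (26.5%) and within 10000 nt for 1237 (47.2%). At the other end, 33 windows held 5 or more and together 234 sites (8.94%).

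The fullest window was chromosome 17, plus strand, from 22020001 to 22030000. It held 15 dsRNase-only sites between 22021891 and 22023993, of which 11 were in all 3 lists, over 584 nt in total. The dsRNase lists had 20, 20 and 16 sites there and the ssRNase lists 3, 1 and 5. Windows were ranked by sites that lack ssRNase by the rule, so low ssRNase counts in them are a description. In bases the lists held 790, 849 and 770 with dsRNase and 188, 60 and 184 with ssRNase. Chromosome 1, plus strand, from 560001 to 570000 followed with 14, of which 8 were in all 3 lists. Its dsRNase lists had 15, 26 and 21 sites and its ssRNase lists 4, 0 and 4.

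The third window was on the minus strand of chromosome 2 from 133010001 to 133020000, with 12 dsRNase-only sites, 10 of them in all 3 lists. Here the ssRNase lists were not sparse, with 9, 7 and 12 sites against 16, 14 and 15 with dsRNase, and the dsRNase-only sites lay a median of 56 nt from the nearest ssRNase site. The fourth, on the minus strand of chromosome 6 from 74220001 to 74230000, held 11, with 19, 25 and 22 dsRNase and 14, 4 and 9 ssRNase sites. Its dsRNase-only sites crowded at one end of the window, between 74227240 and 74229804, a median of 45 nt from ssRNase sites. Windows on the minus strand of chromosomes 19 (from 24180001), 20 (from 55930001) and 9 (from 19370001) tied for the next place with 10 sites each. Of these 3, the chromosome 20 window was the one with the fewest ssRNase sites, 2, 1 and 1 in the 3 lists against 11, 10 and 10 with dsRNase.

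**Figure D5:**
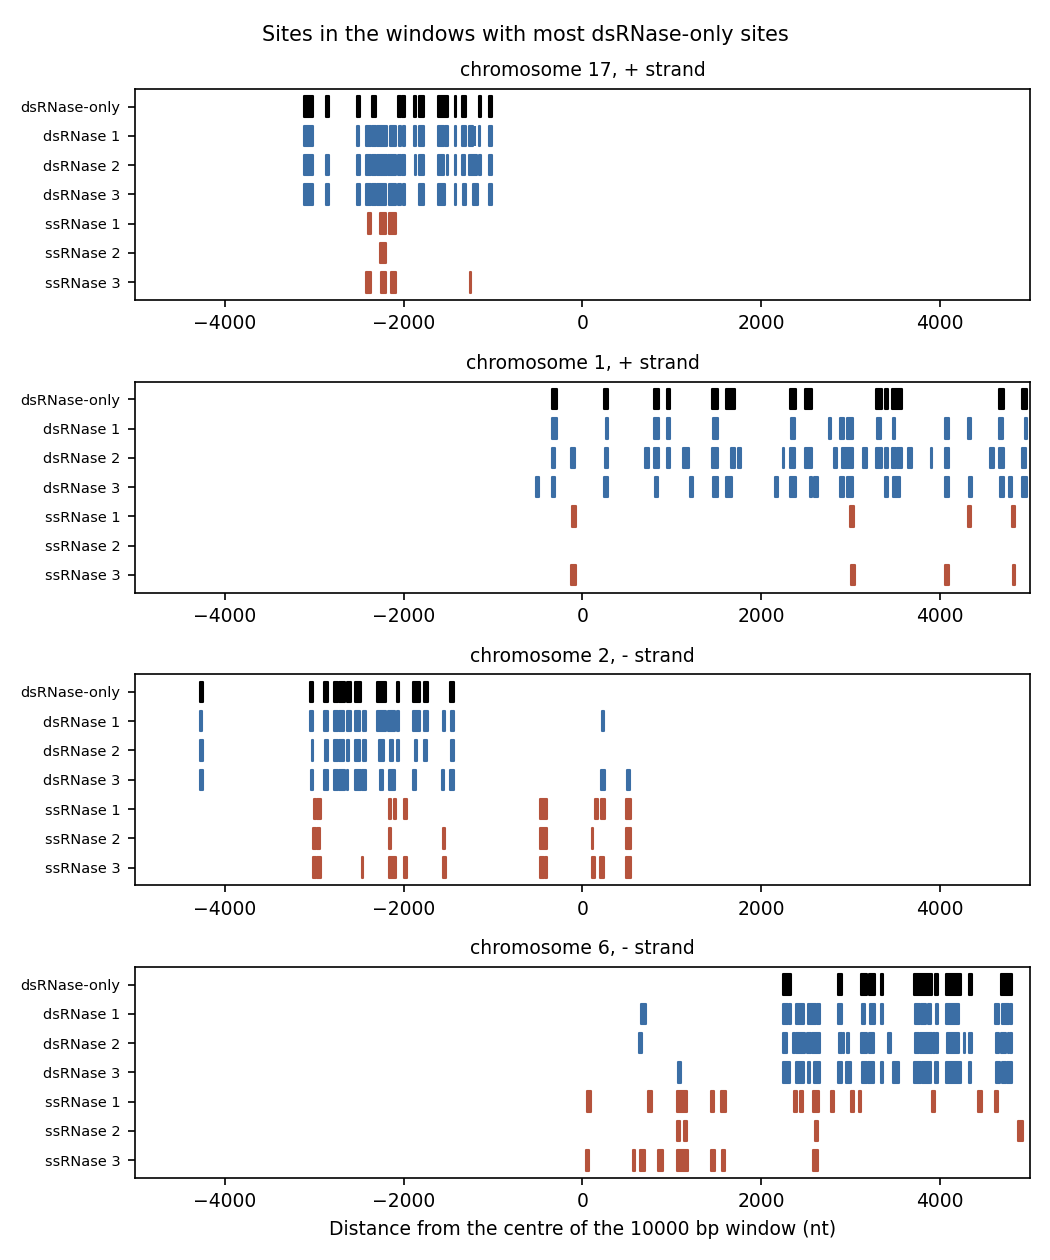
Sites in the 4 windows of 10000 bp with most dsRNase-only sites, drawn to scale by distance from the window's centre in nt (horizontal axis), with the dsRNase-only sites in black, the 3 dsRNase lists in blue and the 3 ssRNase lists in red. On chromosomes 17 and 1 the ssRNase rows hold 9 and 8 sites in all, while on chromosomes 2 and 6 they lie between and beside the dsRNase-only sites.

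Part of the chromosome 1 window repeated the mitochondrial lists. Of the 62 dsRNase replicate sites in it, 24 (38.7%) had the same length as a site on the mitochondrial plus strand in the same list, at a constant shift of 560549 nt with a tolerance of 1 nt, and 13 at exactly that shift. In the other 9 of the 10 fullest windows no shift and no mitochondrial strand gave more than 2 such matches. Of the 14 dsRNase-only sites of the window, 6 had a replicate site that recurred in this way. The ssRNase sites on the window's minus strand did the same at the same shift, 17 of 70 (24.3%) matching a mitochondrial minus-strand site. The treatment of reads that fit more than 1 place is unknown here, and its part in these sites was not tested. This comparison was chosen after the data had been seen. It counted only sites of equal length at a constant shift in the 10 fullest windows. Sites that recur in reversed order along the chromosome keep no constant shift, so the count could not find them on either mitochondrial strand. Whether sites recur in other forms or in other places is therefore unknown.

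The ssRNase lists can also hold a site over a dsRNase-only site on the opposite strand, which the rule did not look at. That was so for 46 of 2618 (1.76%, interval 1.29% to 2.34%), 24 of them in 1 ssRNase list, 13 in 2 and 9 in all 3. Without ssRNase replicate 1, both for the rule and for the opposite strand, the share was 1.11%. By list the share of replicate sites was 1.38%, 1.81% and 1.92%, a mean of 1.70% ± 0.288 (SD, n = 3). It was higher than for sites of a single dsRNase list in each list, by 0.843 points (SD 0.164, n = 3), and lower than for shared sites in each list, the difference being -3.29 points (SD 0.705, n = 3). Both within-list comparisons gave an exact sign-flip permutation p of 0.25, the smallest that 3 pairs allow, and 0.375 after adjustment. The shared sites are longer and the single-list sites shorter, as given above, and the part of length was not tested. Set against the same lists, the merged sites of the mirror class faced a ssRNase site in 14.1%, against 1.76% of dsRNase-only sites, and a dsRNase site in 1.81%, against 0.497%. Each class was defined on one set of these lists, so the shares are given without a test. The difference between the classes in facing the other nuclease is listed only with the dependence on processing. It is not read as a result, because the ssRNase lists are far longer than the dsRNase lists.

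The 46 sites were not spread evenly. The chromosome 1 window held 12 of them, out of its 14 dsRNase-only sites, and 34 sites (1.31%) remained outside it. The per-list shares and differences above include this window and are not given without it, so its part in them is unknown. On the minus strand of chromosome 5 from 134260258 to 134263787, all 5 dsRNase-only sites faced ssRNase sites on the plus strand. That group was singled out after its values had been seen.

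The best-scoring sites were taken by mean rank among sites present in all 3 dsRNase lists, so their agreement across lists is partly built in. The authors' score was used only as a rank within a list, with higher scores taken as better. The replicate sites behind dsRNase-only sites stood at median ranks of 41.2%, 39.4% and 42.2% of their lists, counted from the best. Shared sites stood at 34.9%, 34.2% and 36.7%, and sites of a single list at 86.2%, 70.9% and 85.5%. The rule used the lists these ranks come from, so they are a description.

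First by mean rank came the minus strand of chromosome 4 from 70296653 to 70296752. It ranked 16 of 23925 in replicate 1, 42 of 28413 in replicate 2 and 25 of 21561 in replicate 3, and 95 of its 100 nt were covered in all 3 lists. A ssRNase site adjoined it with no base between, and 1 of the 3 ssRNase lists had a site within 1000 nt. The next 3 lay side by side on the minus strand of chromosome 11, from 10529435 to 10529517, from 10529700 to 10529793 and from 10529891 to 10529989. The last of these had identical ends in all 3 dsRNase lists, 99 nt in each, and ranked 21, 23 and 39. The first ranked 42, 33 and 17, and the middle one 78, 61 and 66. All 3 ssRNase lists had sites within 1000 nt of each, and the gaps to the nearest ssRNase site were 3, 1 and 6 nt in coordinate order. Highly ranked dsRNase-only sites could thus stand directly beside ssRNase sites.

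Of the other 6 among the best 10, chromosome 2 gave a pair on the minus strand, from 133012458 to 133012519 (ranks 40, 50 and 109) and from 133012220 to 133012269 (ranks 101, 124 and 99), both inside the third-fullest window. Chromosome 5 gave a site on the minus strand from 79945842 to 79945987, 253 nt from the nearest ssRNase site, at ranks 81, 63 and 89. Chromosome 12 gave one from 34372620 to 34372672 and chromosome 19 one from 24186144 to 24186186, both on the minus strand. The tenth was on the minus strand of chromosome 11 from 45848228 to 45848294, with ranks 66, 75 and 175. It differed from the other 9 in its surroundings: the nearest ssRNase site on its strand was 85726 nt away and no ssRNase list had one within 1000 nt. All 10 lay on the minus strand, which held 73.2% of the sites of all 3 lists from which they were drawn. Several of the 10 are neighbours and not independent, so this count is a description.

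The 5 longest sites were also all on the minus strand and in all 3 lists. The longest, on chromosome 6 from 74228711 to 74228901, spanned 191 nt, of which 121 were covered in all 3 lists, and its best replicate sites were 60, 68 and 70 nt long. A second one in the same window, from 74229061 to 74229225, was nearly one block, with replicate sites of 146, 137 and 165 nt. The remaining 3 were on chromosome 14 from 102547742 to 102547907 (166 nt), on chromosome 1 from 182353742 to 182353906 (165 nt) and on chromosome 17 from 8283122 to 8283278 (157 nt). In these, 42, 79 and 65 nt were covered in all 3 lists, and 98, 112 and 99 nt in at least 2.

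A small part of the class lay far from any ssRNase site. For 122 sites (4.66%) the nearest ssRNase site on the strand was more than 10000 nt away. They fell into 115 windows, had a median length of 36 nt, and were on the minus strand in 70.5%, against 71.7% of the other dsRNase-only sites. All 3 dsRNase lists held 44.3% of them (54 sites), against 31.5% of the sites nearer to ssRNase. The window with most had 3, at chromosome 17 from 51183490 to 51183746 (plus strand), and 2 of these were in all 3 lists. Their nearest ssRNase site was at least 1795617 nt away. On the minus strand of chromosome 11 from 87524733 to 87524916 and of chromosome 5 from 174541763 to 174542149 there were 2 sites each, all in all 3 lists, at least 321856 and 412838 nt from a ssRNase site.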

How the data were processed

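Protein interaction profile sequencing was done on 12 libraries. Per the labels' protocols, a 2 hour step at 65 °C undid the cross-links, and duplex-specific nuclease evened out the libraries. Cutadapt 0.9.5 and TopHat2 2.0.9 with build hg19 are named in the submitters' processing notes, and the names of the deposited lists state CSAR at a false discovery rate of 5%. Read filters are unknown here. Each site in the replicate lists carries a score from the authors, on an unstated scale, which served only for ranks within a list. Higher scores were taken as better, which is an assumption.

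Positions were read as 1-based and inclusive. A distance is the number of bases between 2 sites. Overlap and distance code was tested on simulated data (0 of 4000 answers wrong for each). Intervals are exact binomial at 95%. Per-list values were compared by exact permutation tests over lists, adjusted over 6 tests, of which the opposite-strand test against the mirror class is not read, since the lists searched differ in length. Named sites followed a rule on ranks, lengths, windows and distances; the class and this rule were chosen with earlier results of these data known. Replicate site lengths were to be tested against the mirror class; they are given without a test because length bears on membership. The reference at hand belongs to another build, so base composition, motifs, gene names and gene lists were not analysed here. Tools were scipy 1.17.1, pandas 2.3.3 and numpy 2.4.6 under Python 3.11.15, with figures drawn in matplotlib 3.10.9.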

Additional observations from a re-analysis of the deposited data

How the results depend on the processing

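The number of dsRNase-only sites, 2618, was 840 with all 3 dsRNase lists required, 1608 and 928 with no ssRNase site allowed within 50 and 200 nt, and 1155 with the better-scoring 50% of each dsRNase list; without single replicates it ran from 1279 (dsRNase replicate 2) to 4697 (ssRNase replicate 1). An overlap of 50% of the replicate site changed nothing, because merged sites contain their replicate sites whole. The minus-strand share was 69.5% with the 200 nt gap, 75.8% with the better scores and 69.0% to 77.9% without single replicates. The median length was 48 nt in all 3 lists, 46 nt with the better scores, 29 nt for bases covered in 2 lists, and 41 to 48 nt without single replicates. The opposite-strand share was 2.5% in all 3 lists, 2.67% within 50 nt, and 1.11% to 2.42% without single replicates. The share with a further dsRNase-only site within 1000 nt was 20.6% and 16.1% with the 50 and 200 nt gaps, 47.2% within 10000 nt, and 22.9% to 32.9% without single replicates. The share with a ssRNase site within 1000 nt, examined under other settings after seeing the data, was 73.5% and 54.1% with those gaps, which remove near sites by construction, 85.7% with the better scores, and 74.4% to 84.0% without single replicates. Apart from these gaps, the cause was not tested. The planned test of base composition was not run, for want of a genome of this build.

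The minus-strand difference from the mirror class was 17.2 to 20.3 points without single replicates, the length difference -11.5 to -10 nt and the opposite-strand difference -0.523 to -0.1 points. With a replicate block (lists paired by number) these differences stay 18.4 points, -10.7 nt and -0.375 points by construction, and the exact sign-flip permutation p was 0.25 for strand, the smallest possible, and 0.5 for the opposite strand, where the lists searched differ in length and no p is read. The labels do not say what the numbers pair. The minus-strand difference from single-list sites, -1.63 points, ran from -9.75 to 2.63 and was positive without dsRNase replicate 1 (2.63) or 3 (2.24). The other within-list differences kept their sign, at -3.76 to -2.84 points (strand, shared sites), 0.769 to 0.931 points (opposite strand, single-list sites) and -3.56 to -2.89 points (opposite strand, shared sites). No p could pass 0.05 in these designs, so none speaks of stability.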
